A study of Mus musculus with 36 samples.

Results

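The hedgehog pathway was followed in the RNA of ureteric bud (UB), stromal progenitor (SP) and nephron progenitor (NP) cells of the mouse kidney, and in the engineered cells of the same 3 types made from mouse embryonic stem cells (mESC). The genes were chosen by name as 9 members of the pathway: the ligand genes *Shh* and *Ihh*, the receptor gene *Ptch1*, the signal transducer genes *Smo* and *Sufu*, the transcription factor genes *Gli1*, *Gli2* and *Gli3*, and *Hhip*, whose product binds the ligands. All 9 were found among the 22761 genes measured. The 36 samples fell into 9 groups of 4. The ex-fetu cells of the 3 types came from kidneys of CD1 mice at embryonic day (E) 11.5 and 12.5, 1 litter pooled to a sample. The iSP and iNP cells were made together from E14 mESC and the eUB cells (labelled iUB) from mESC that carry an mCherry reporter, named *Sox9-mCherry* in the labels and in the RNA methods, each sample being the embryoid bodies of a single differentiation. The methods describe the making of a *Sox8-mCherry* line from IB10 mESC and of no *Sox9* line, so the reporter gene and parent line of the eUB cells are unclear. No group is labelled with a deletion. The ES-derived cells, but not the ex-fetu ones, were made in media that held, at different steps, activin A, BMP4, FGF9, retinoic acid, CHIR99021 (which activates WNT signalling) and Y27632 (a ROCK inhibitor), and for eUB cells also SB431542 (an inhibitor of activin and TGF-beta receptors), GDNF and Matrigel. These media list no hedgehog ligand and no SMO agonist, and their effect and that of the cell source cannot be told apart. Cells were sorted by surface protein or reporter: UB cells as RET and EpCAM positive, eUB cells as EpCAM and mCherry positive, NP and iNP cells as high for ITGA8 and low for PDGFRA, and SP and iSP cells as low for ITGA8 and high for PDGFRA, in both cases after cells with CD31, EpCAM or RET on their surface had been gated out. For the UB samples the labels disagree on the age: the title of each names 1 of the ages and its cell source the other. The titles were used, and every difference between the UB ages turns its sign if the other label is right. The comparisons of eUB with E11.5 and with E12.5 UBs would then change places, and UB cells would not match the SP and NP cells they are set against in age.

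Hedgehog ligands are secreted by epithelia and act on neighbouring cells, where they bind PTCH1 and release SMO from its inhibition. Active SMO, in the primary cilium, frees the GLI proteins from SUFU; GLI2 then acts mainly as an activator, while without ligand GLI3 is cut to a repressor. *Ptch1*, *Gli1* and *Hhip* are themselves switched on by the pathway in most tissues, so that their RNA is widely read as a measure of its activity. In the kidney, SHH from the ureter and the medullary collecting duct acts on the mesenchyme around them, and GLI3 repressor is needed for the branching of the ureteric bud.

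Each library held 13.0 to 52.5 M reads on genes. The values are CPM (counts scaled to a common library size) with the normalisation of the authors, and 3 reads, the level taken as detectable, corresponded to between 0.0605 and 0.223 CPM. The cell types carried the markers of their names, with 2 limits: *Foxd1*, the gene that defines kidney stroma, was at 15.2 CPM in iSP cells against 410 in E11.5 SP cells, though *Pdgfra* was at 410 and 344, and *Six2*, the gene that defines nephron progenitors, was at 139 in iNP cells against 590 in E11.5 NP cells. In eUBs *Ret* was at 473 CPM against 364 in E11.5 UBs. Macrophage genes (5 of 5 detected) summed to between 44.1 and 69.7 CPM in E11.5 UB libraries and between 36.0 and 62.7 in E12.5 UB libraries, but to at most 0.429 in eUB libraries, and globin and other erythroid genes were at or near 0 in the ES-derived groups. Some libraries stood apart from the others of their group. The first E12.5 UB library held 490 CPM of nephron progenitor markers against at most 85.4 in the other E12.5 UB libraries. Its stromal markers summed to 496 CPM against at most 201, and its endothelial markers to 87.4 against at most 6.04. The first E12.5 SP and NP libraries were low in the markers of their own type, and the second iNP and the first eUB library also stood apart.

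The plot of the 9 genes by library shows where each was found. In bulk RNA, fewer cells that use a gene and less RNA in each cell cannot be told apart. Genes that reached 1 CPM in 4 or more of the 8 libraries compared were tested with limma on log2(CPM + 1) and called at a Benjamini-Hochberg adjusted p under 0.05 over all genes tested; this scale understates the change of low genes, and SE is the standard error of the log2 difference. In most comparisons a large share of all genes was called, so the share is given beside each count of members.

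**Figure D1:**
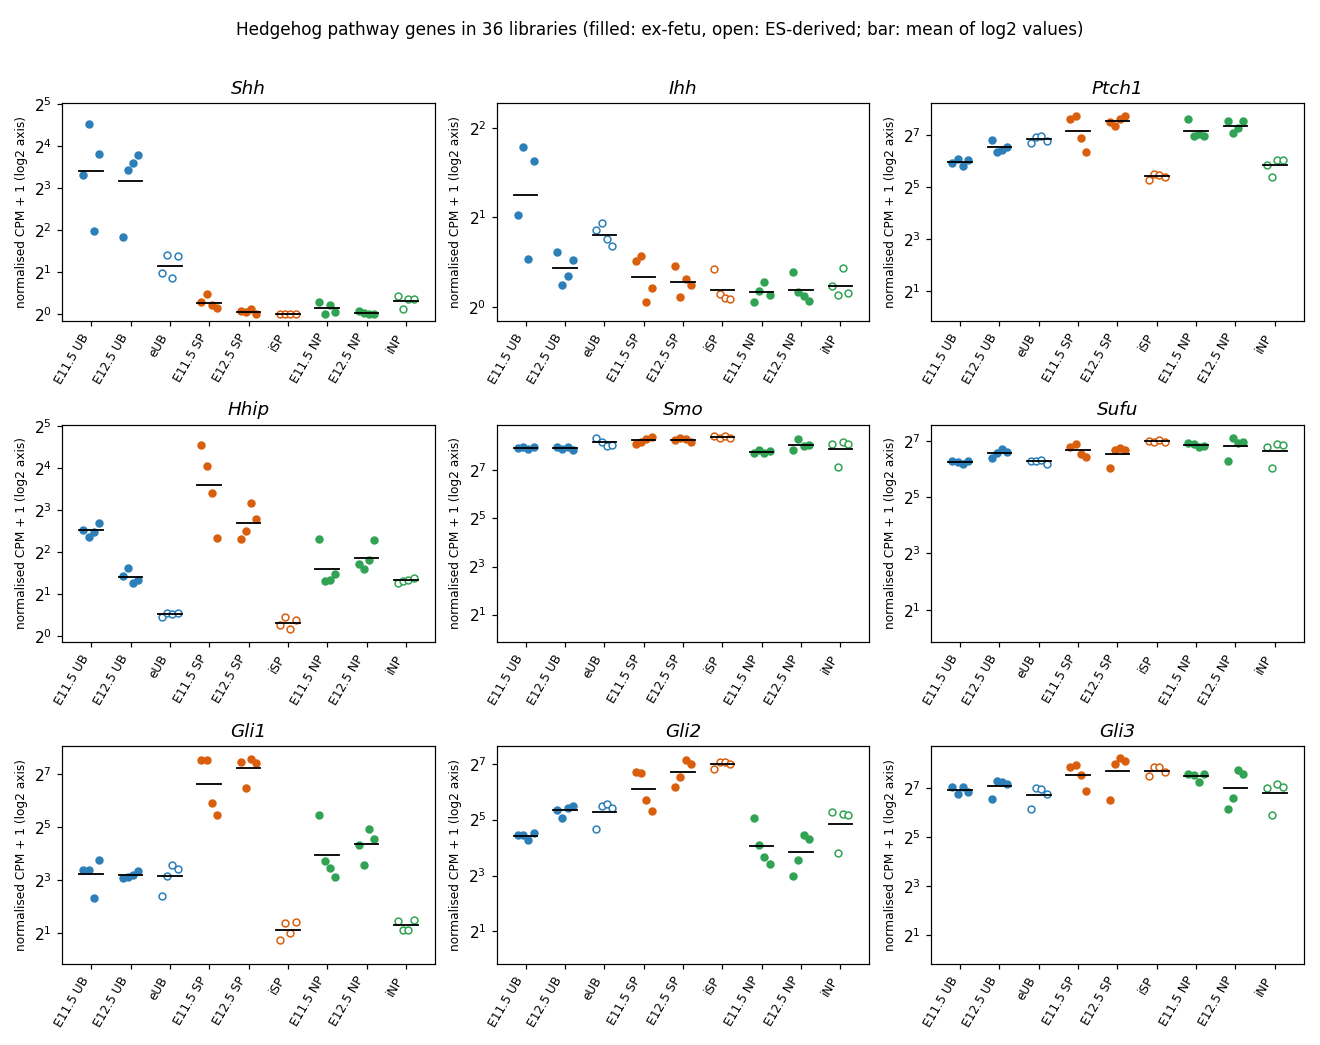
Level of each of the 9 genes in the 36 libraries (vertical axis, normalised CPM + 1 on a log2 axis), by group (horizontal axis); filled points are ex-fetu and open points ES-derived libraries, and each bar is the mean of the 4 log2 values. *Shh* sits in the UB groups, *Gli1* sits highest in the ex-fetu SP groups and lies at 0.676 to 1.78 CPM in iSP and iNP cells, and *Smo* and *Sufu* vary least.

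The ligand gene *Shh* (ENSMUSG00000002633, GRCm38 chr5:28456815-28467256, minus strand) was found in ureteric bud cells. It was at 8.91, 22.1, 2.95 and 13.0 CPM in the E11.5 UB libraries, from between 78 and 550 reads, and at 2.58, 9.75, 11.1 and 12.7 in the E12.5 UB libraries. In eUBs it was at 0.965, 1.67, 0.816 and 1.63 CPM, from between 13 and 47 reads. The eUB libraries thus lay below every ex-fetu UB library, by a factor of 9.26 between the means of eUB and E11.5 UB cells. The log2 difference was -2.25 against E11.5 UBs (SE 0.45, limma adjusted p = 0.00165) and -1.998 against E12.5 UBs (SE 0.40, limma adjusted p = 0.00345). Between the UB ages the libraries overlapped and the difference was -0.25 (SE 0.56, limma adjusted p = 0.783).

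Outside the ureteric bud groups *Shh* was at or near the limit of detection. No SP or NP library of either age held more than 0.389 CPM, iNP libraries held between 0.0984 and 0.352 CPM, and in the 4 iSP libraries it was listed at 0, where 3 reads would correspond to between 0.101 and 0.145 CPM. The ex-fetu UB libraries were above every mesenchymal library. *Shh* passed the filter against SP and NP cells through the UB libraries alone, so that these comparisons are given as levels, with no test. eUB libraries were also above every iSP and iNP library (exact two-sided permutation test, p = 0.0286 for each, the smallest that 4 libraries against 4 allow). *Shh* shares 446 exonic bases with *9530036O11Rik* on the opposite strand, and whether the counting used strand is not stated.

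The E11.5 UB libraries that were high in *Shh* were high in other epithelial genes as well. *Foxa1* and *Foxa2* encode forkhead factors of endoderm and of several SHH-making epithelia. *Foxa1* was at 10.3, 12.3, 2.98 and 14.1 CPM in the same 4 libraries and *Foxa2* at 2.33, 5.35, 0.151 and 2.99. The summed gut endoderm markers were at 13.3, 18.7, 3.78 and 19.0 CPM and the macrophage markers at 65.0, 63.9, 44.1 and 69.7. The library lowest in *Shh* was thus the lowest in each. *Foxa1* and *Foxa2* are themselves on the gut endoderm list and make up most of its sum in these libraries. Ureteric bud markers moved far less, between 3386 and 3652 CPM in sum. In eUBs *Foxa1* was at 3.86 to 5.28 CPM and *Foxa2* at 0.149 to 0.258. The markers of ureteric trunk and ureter epithelium summed to 31.5 to 40.2 CPM in eUB libraries, against 113 to 153 in E11.5 and 56.8 to 133 in E12.5 UB libraries (5 of the 7 genes of the list having a value), with *Wnt7b*, a trunk gene, at 29.6 to 38.3 against 111 to 138 and 52.0 to 131. The part of these cells in the level of *Shh* was not tested.

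*Ihh* (ENSMUSG00000006538, GRCm38 chr1:74945315-74951672, minus strand), a ligand gene best known in cartilage and gut, was low throughout. It was at 1.03, 2.45, 0.453 and 2.10 CPM in E11.5 UB libraries, between 0.189 and 0.532 in E12.5 UB libraries and between 0.602 and 0.923 in eUB libraries, and no library of another group held more than 0.486 CPM. It passed the filter on low values in no comparison. eUB cells were above E12.5 UB cells in all 4 libraries (exact two-sided permutation test, p = 0.0286) and overlapped with E11.5 UB cells (exact two-sided permutation test, p = 0.257). The 36 libraries held *Dhh*, the third ligand gene of the mouse, at group means of 0.0363 to 0.283 CPM.

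*Ptch1* (ENSMUSG00000021466, GRCm38 chr13:63508328-63573598, minus strand), the receptor gene and a target of the pathway, was present in every library, and its order among cell types was not the same ex-fetu and in ES-derived cells. Ex-fetu it was higher in mesenchyme than in bud. The E11.5 SP libraries held 198, 214, 117 and 81.8 CPM, the E11.5 NP libraries 199, 123, 130 and 125, and the E11.5 UB libraries 60.5, 66.6, 56.1 and 64.6. Every E11.5 UB library was below every mesenchymal library of that age. The log2 difference was -1.19 from SP (SE 0.26, limma adjusted p = 0.00335) and -1.18 from NP cells (SE 0.13, limma adjusted p = 9.11e-06).

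Among ES-derived cells *Ptch1* was highest in the bud cells. The iSP libraries held 37.7, 45.0, 42.8 and 41.2 CPM, the iNP libraries 57.4, 41.0, 64.6 and 65.7, and the eUB libraries 104, 120, 125 and 108. The eUB libraries were above every iSP and iNP library, by 1.43 (SE 0.08, limma adjusted p = 2.53e-07) and 1.01 (SE 0.15, limma adjusted p = 0.000436) on the log2 scale. Against E11.5 cells of the same type, *Ptch1* fell by 1.75 in iSP (SE 0.27, limma adjusted p = 0.000314) and by 1.32 in iNP cells (SE 0.19, limma adjusted p = 0.00022), and rose by 0.87 in eUBs (SE 0.09, limma adjusted p = 1.67e-05). The groups did not overlap in any of these. The change in bud cells differed from that in stromal cells by 2.62 (SE 0.28, limma adjusted p = 6.65e-09) and from that in nephron progenitors by 2.19 (SE 0.28, limma adjusted p = 1.94e-07), in a fit of all 36 libraries. Against E12.5 UBs, at 112, 80.7, 86.3 and 92.3 CPM, the eUB difference was 0.30 (SE 0.11, limma adjusted p = 0.0554). Without the first E12.5 UB library it was 0.40 (limma adjusted p = 0.00629), and without the first eUB library 0.35 (limma adjusted p = 0.0349).

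*Hhip* (ENSMUSG00000064325, GRCm38 chr8:79965851-80058006, minus strand) encodes a membrane protein that binds hedgehog ligands and limits their reach, and is a target of the pathway. It was lowest in eUB and iSP cells. E11.5 SP libraries held 22.3, 15.6, 9.53 and 4.03 CPM against 0.193, 0.358, 0.111 and 0.304 in iSP libraries, the latter from between 3 and 10 reads. The log2 difference was -3.27 (SE 0.40). E11.5 UB libraries held 4.75, 4.14, 4.53 and 5.44 CPM against 0.371, 0.461, 0.429 and 0.460 in eUB libraries, a difference of -1.99 (SE 0.11). The summed ureteric mesenchyme markers were at 44.7 to 70.2 CPM in E11.5 UB and 5.64 to 10.6 in eUB libraries (5 of 5 and 3 of 5 over 3 reads in any library); their part was not tested. No eUB or iSP library reached 1 CPM, so that *Hhip* passed the filter through the ex-fetu libraries alone and these differences are given with no test. In nephron progenitors the 4 iNP libraries lay between 1.37 and 1.62 CPM and the E11.5 NP libraries at 3.94, 1.48, 1.49 and 1.78, a difference of -0.28 that did not pass (SE 0.21, limma adjusted p = 0.257). The stromal change differed from the nephron progenitor change by -2.99 (SE 0.38) and the bud change by -1.71 (SE 0.38), also given with no test. Against E12.5 cells *Hhip* was lower in all 3 ES-derived types, by -0.89 in eUB, -2.37 in iSP and -0.53 in iNP cells. The last, at a limma adjusted p = 0.0201, did not pass without the first iNP library (-0.50, limma adjusted p = 0.0543). *Hhip* shares 175 exonic bases with *Gm27820* on the opposite strand.

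The sequences before the start sites of *Ptch1* and *Hhip* are shown because these 2 target genes fell together in iSP cells, and GLI proteins are known to bind TGGGTGGTC. They are the 250 bases before the RefSeq start sites (GRCm38.p6, both on the minus strand and written 5′ to 3′ along the gene), with the 6 core letters GGGTGG or, on the other strand, CCACCC in capitals.
Ptch1 (chr13:63565736-63565985): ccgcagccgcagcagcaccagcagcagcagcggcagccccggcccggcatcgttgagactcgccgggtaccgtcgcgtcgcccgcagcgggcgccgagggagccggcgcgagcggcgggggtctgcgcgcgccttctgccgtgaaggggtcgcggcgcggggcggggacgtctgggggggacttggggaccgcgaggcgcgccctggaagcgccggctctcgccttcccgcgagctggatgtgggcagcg
Hhip (chr8:80058009-80058258): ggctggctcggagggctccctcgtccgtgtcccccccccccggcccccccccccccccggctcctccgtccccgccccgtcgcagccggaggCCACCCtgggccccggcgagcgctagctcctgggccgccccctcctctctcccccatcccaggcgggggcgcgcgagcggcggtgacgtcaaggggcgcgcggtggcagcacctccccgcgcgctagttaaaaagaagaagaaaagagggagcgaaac
The *Ptch1* window is 78.4% G or C with 41 CpG and holds no match; its start site lies 7863 bases inside the gene as GENCODE draws it, so that other starts of the gene were not searched. The *Hhip* window is 76.0% G or C with 28 CpG and holds CCACCC at position -158. Over windows of 250 bases before to 50 after the start, TGGGTGGTC (either strand) was found in 83 of 32851 windows (0.253%) and in none of the 7 members that have a window (*Ihh*, *Ptch1*, *Smo*, *Gli2*, *Gli3*, *Hhip* and *Sufu*). GGGTGG (either strand, part of the longer motif) was found in 10340 windows (31.5%) and in 5 of these 7. A match is a string of letters and not a bound site.

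*Gli1* (ENSMUSG00000025407, GRCm38 chr10:127329882-127341974, minus strand), an activator and the most direct target of the pathway, had the widest range of the 9 genes on the log2(CPM + 1) scale. It was highest in ex-fetu stroma. E11.5 SP libraries held 184, 183, 59.0 and 42.9 CPM and E12.5 SP libraries 173, 86.3, 188 and 167, while iSP libraries held 0.676, 1.58, 0.997 and 1.66, from between 14 and 49 reads. The lowest ex-fetu SP library was thus far above the highest iSP library, and the group means differed by a factor of 95.7 at E11.5. The log2 difference was -5.48 against E11.5 (SE 0.46, limma adjusted p = 6.18e-06) and -6.08 against E12.5 (SE 0.25, limma adjusted p = 1.33e-07).

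In nephron progenitors *Gli1* was lower ex-fetu than in stroma, and lower again in iNP cells. iNP libraries also held neural tube markers (7 of 7 detected) at 45.5 to 69.8 CPM in sum against 5.27 to 9.78 in E11.5 NP libraries, with *Sox2*, a neural and stem cell gene, at 26.2 to 36.5 against at most 1.25. Endothelial markers (5 of 5 detected) summed to 43.9 to 74.8 CPM in iNP libraries against 8.92 to 27.0 in E11.5 NP libraries, although the sort gated out cells with CD31. The part of these markers in the iNP differences was not tested. E11.5 NP libraries held 42.3, 12.02, 10.1 and 7.73 CPM and E12.5 NP libraries 19.0, 10.8, 29.3 and 22.4, against between 1.14 and 1.78 in the 4 iNP libraries. The groups did not overlap. The log2 difference was -2.64 from E11.5 (SE 0.42, limma adjusted p = 0.000401) and -3.05 from E12.5 cells (SE 0.26, limma adjusted p = 1.37e-05). In the bud the 3 groups overlapped: E11.5 UB libraries held 9.46, 9.41, 4.004 and 12.4 CPM, E12.5 UB libraries between 7.45 and 9.08, and eUB libraries 4.31, 7.91, 10.9 and 9.63. The difference of eUB from E11.5 UB cells was -0.07 (SE 0.33, limma adjusted p = 0.867). The 3 changes differed from each other: bud from stroma by 5.41 (SE 0.60, limma adjusted p = 1.14e-08), bud from nephron progenitors by 2.57 (SE 0.60, limma adjusted p = 0.000816) and stroma from nephron progenitors by -2.83 (SE 0.60, limma adjusted p = 0.000496). The order of the cell types was not the same ex-fetu and in ES-derived cells: eUBs were 2.01 above iSP (SE 0.26, limma adjusted p = 7.78e-05) and 1.85 above iNP cells (SE 0.24, limma adjusted p = 0.000157), whereas the difference of E11.5 UBs from E11.5 SP cells was -3.40. *Gli1* shares 62 exonic bases with *Arhgap9* and 265 with *Gm47200* on the opposite strand.

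**Figure D2:**
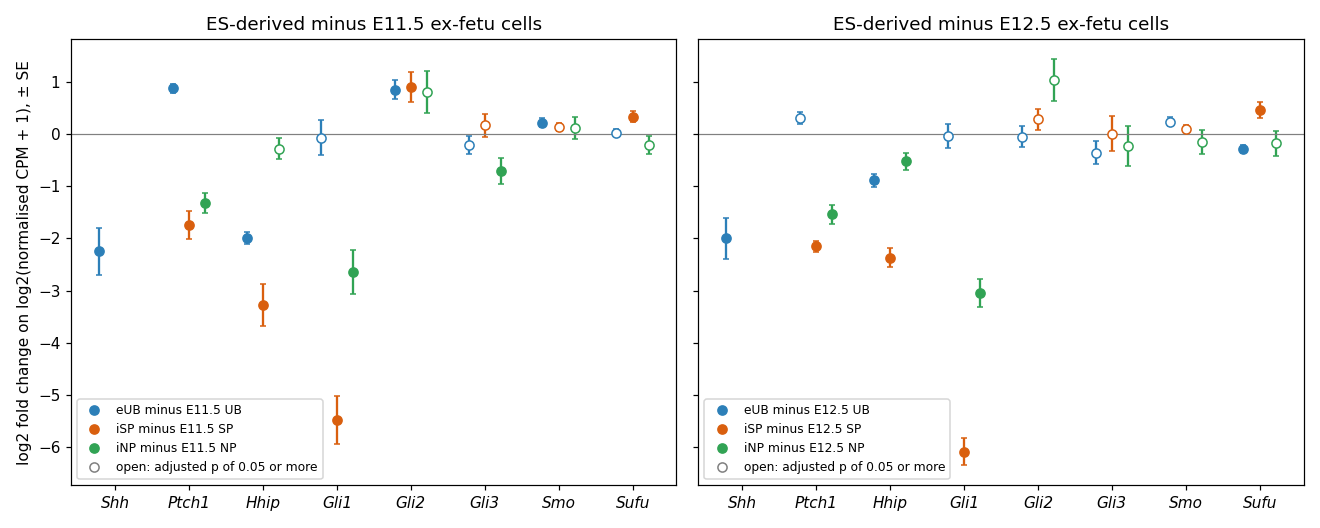
Log2 difference (vertical axis, on log2(normalised CPM + 1), ± SE) of ES-derived from E11.5 (left) and E12.5 (right) ex-fetu cells of the same type for each gene (horizontal axis); filled points have a limma adjusted p under 0.05. *Gli1* and *Ptch1* fell in iSP and iNP cells and not in eUBs, *Hhip* was lower in eUB and iSP cells than at both ages, and *Smo* and *Sufu* lie within 0.5 of 0. The filled *Hhip* points of eUB and iSP cells are no test, since no library of these groups reached 1 CPM. *Shh* is drawn for the bud, where it could be tested.

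The 4 E11.5 SP libraries differed among themselves in the target genes and in other members. Where *Gli1* was at 184, 183, 59.0 and 42.9 CPM, *Foxf1* and *Foxf2*, forkhead target genes of mesenchyme next to hedgehog-making epithelia, were at 20.2, 14.6, 1.03 and 0.312, and at 65.6, 47.3, 9.14 and 2.52. *Ptch1*, *Hhip*, *Gli2*, *Gli3* and *Sufu* took the same order of the first pair above the third and the third above the fourth. *Smo* did not, at 275, 290, 319 and 331 CPM, nor did *Foxl1*, another forkhead target, at 7.61, 10.4, 12.6 and 23.5. The summed ureteric bud markers were at 304, 260, 242 and 131 CPM in the 4 libraries, the ureteric mesenchyme markers at 363, 361, 301 and 247 and the erythroid genes at 56.9, 211, 185 and 1203. Their part in the difference was not tested. E12.5 SP libraries held at most 1.25 CPM of *Foxf1* and 0.867 of *Foxf2* at *Gli1* levels of 86.3 to 188.

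In E11.5 nephron progenitors the first library took the same place. It held 42.3 CPM of *Gli1*, 199 of *Ptch1*, 3.94 of *Hhip*, 32.0 of *Gli2* and 3.39 of *Foxf1*, where the other 3 held at most 12.02, 130, 1.78, 16.0 and 0.853. Its ureteric mesenchyme markers summed to 141 CPM against 49.1 to 61.6 in the others, and its *Six2*, at 579 CPM, lay among theirs (557 to 641). Without it the fall of *Gli1* in iNP cells was -2.14 (limma adjusted p = 2.48e-05).

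**Figure D3:**
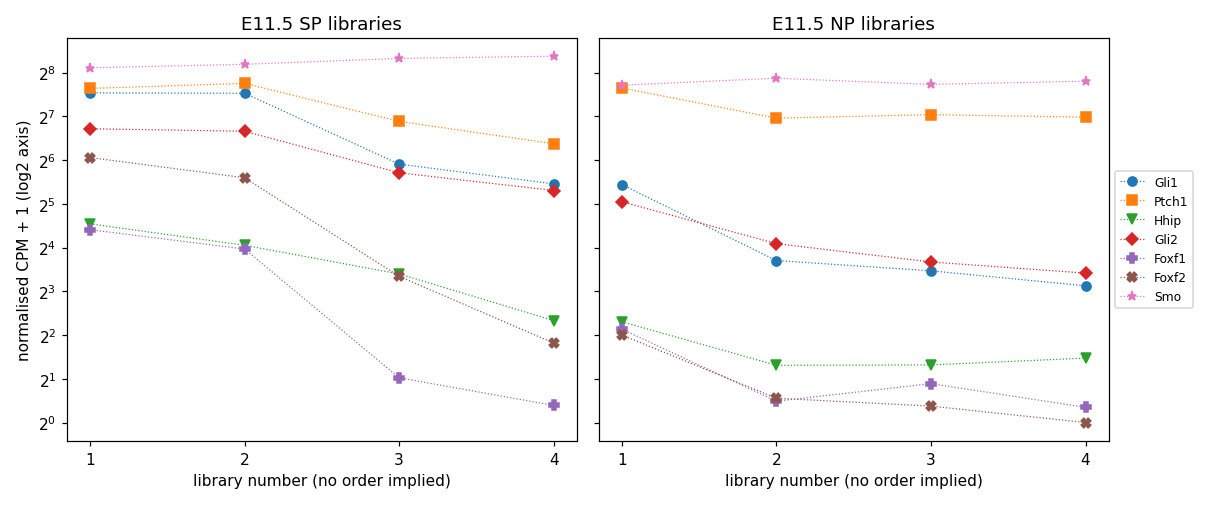
Levels of 7 genes (vertical axis, normalised CPM + 1 on a log2 axis) in each of the 4 E11.5 SP libraries (left) and the 4 E11.5 NP libraries (right); the lines join the points of a gene and imply no order. *Gli1*, *Ptch1*, *Hhip*, *Gli2*, *Foxf1* and *Foxf2* stand higher in the first 2 SP libraries and in the first NP library, and *Smo* does not.

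*Gli2* (ENSMUSG00000048402, GRCm38 chr1:118834132-119053619, minus strand), the main activator, did not follow *Gli1*. It was not lower in the ES-derived stromal cells, where *Gli1* was near 1 CPM: iSP libraries held 112, 133, 133 and 127 CPM against 104, 100, 51.3 and 38.5 in E11.5 SP libraries. The groups did not overlap. The log2 difference was 0.89 (SE 0.29, limma adjusted p = 0.0205), and it rested in part on the E11.5 SP libraries low in *Gli1*: without the third it was 0.76 (limma adjusted p = 0.0599). Against E12.5 SP libraries, at 70.1, 91.7, 141 and 127 CPM, the difference was 0.28 (SE 0.20, limma adjusted p = 0.242). *Gli2* was also higher in eUB than in E11.5 UB cells (24.2, 43.7, 46.2 and 41.4 against 21.0, 21.0, 18.2 and 22.2 CPM), by 0.85 (SE 0.18, limma adjusted p = 0.00269), and not beyond the spread against E12.5 UB cells (-0.05, SE 0.20, limma adjusted p = 0.853). The iNP libraries held 37.3, 12.8, 35.4 and 35.2 CPM and the E11.5 NP libraries 32.0, 16.0, 11.7 and 9.68, a difference of 0.80 (SE 0.41, limma adjusted p = 0.109). Against E12.5 NP cells it was 1.03 (SE 0.40, limma adjusted p = 0.0606), and 1.38 without the second iNP library (limma adjusted p = 0.00899). Against E11.5 NP cells and without the second iNP library it was 1.15 (limma adjusted p = 0.00704), and without the first E11.5 NP library 1.13 (limma adjusted p = 0.0259).

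*Gli3* (ENSMUSG00000021318, GRCm38 chr13:15463235-15730026, plus strand), the gene of the repressor, was expressed in every library at between 59.5 and 301 CPM. iSP libraries held 179, 233, 232 and 200 CPM and E11.5 SP libraries 231, 247, 187 and 116, which overlapped (0.16, SE 0.22, limma adjusted p = 0.529). iNP libraries held 129, 59.5, 142 and 131 CPM and E11.5 NP libraries 192, 188, 150 and 189, which did not. The fall of 0.70 in iNP cells (SE 0.25, limma adjusted p = 0.0305) lost its call without the first, the second or the fourth E11.5 NP library, with log2 differences of -0.68 to -0.67 and limma adjusted p-values of 0.0674 to 0.0735, as well as under quantile normalisation (-0.44, limma adjusted p = 0.122) and with all 36 libraries in the fit (limma adjusted p = 0.0626). Without the second iNP library, the lowest of its group, the difference was -0.41. In eUBs the difference from E11.5 UBs was -0.21 (SE 0.17, limma adjusted p = 0.331). *Gli3* shares 188 exonic bases with *Gm6556* on the opposite strand.

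Per length the 3 GLI genes changed their balance. In normalised CPM per kilobase of exon, E11.5 SP cells held 23.5 ± 15.4 (SD, n = 4) of *Gli1*, 10.7 ± 4.86 (SD, n = 4) of *Gli2* and 20.4 ± 6.11 (SD, n = 4) of *Gli3*. iSP cells held 0.246 ± 0.0940, 18.4 ± 1.45 and 22.01 ± 2.71 (each SD, n = 4). The means of *Gli1* and *Gli3* were thus within their spread in E11.5 stroma, but the balance differed between libraries. *Gli1* was at 36.9, 36.7, 11.8 and 8.58 and *Gli3* at 24.1, 25.7, 19.5 and 12.1 in the E11.5 SP libraries. In iSP cells every library held more *Gli2* and *Gli3* than *Gli1* on this scale. In E11.5 NP cells the values were 3.61 ± 3.26, 2.53 ± 1.47 and 18.7 ± 2.10, and in iNP cells 0.293 ± 0.0701, 4.39 ± 1.69 and 12.03 ± 3.94 (each SD, n = 4). The bar plot of the GLI genes shows the same for all 9 groups. RNA does not show how much GLI3 protein was cut to its repressor form.

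**Figure D4:**
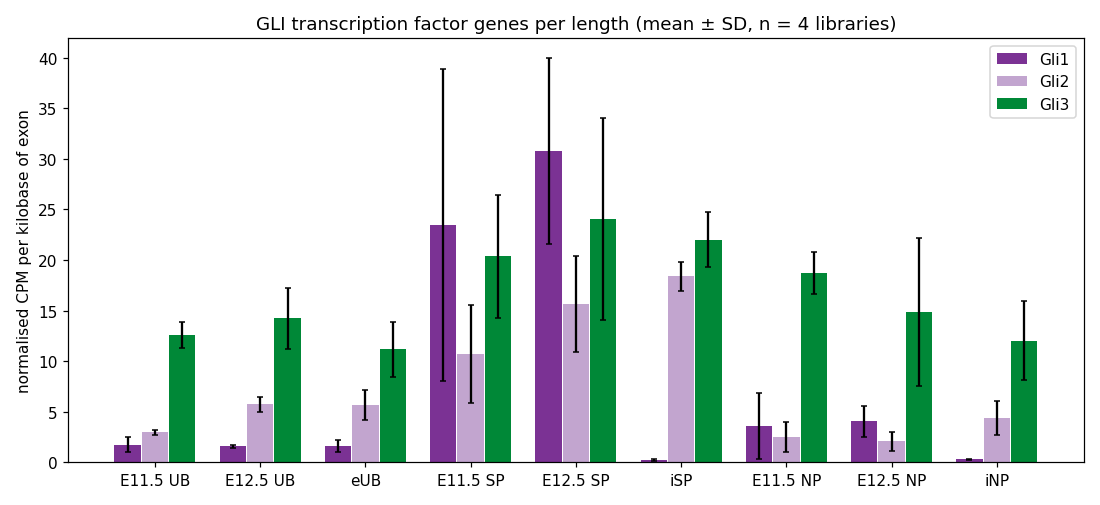
Mean level of *Gli1*, *Gli2* and *Gli3* per length (vertical axis, normalised CPM per kilobase of exon; error bars, SD of 4 libraries) in each of the 9 groups (horizontal axis). The *Gli1* bar is at least as high as that of *Gli3* in ex-fetu SP cells, as a mean of libraries that differ in this balance. It is close to 0 in iSP and iNP cells.

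The transducer genes *Smo* and *Sufu* moved little. *Smo* (ENSMUSG00000001761, GRCm38 chr6:29735503-29761365, plus strand) had group means of 219 to 333 CPM and was the highest of the 9 genes per length in every group, at 38.9 to 59.2 CPM per kilobase. Its difference in iSP from E11.5 SP cells was 0.13 (SE 0.08, limma adjusted p = 0.164) and in iNP from E11.5 NP cells 0.11 (SE 0.21, limma adjusted p = 0.656). The latter became 0.36 (limma adjusted p = 0.000304) without the second iNP library, which held 140 CPM against 275 to 292 in the others. In eUBs, at 328, 292, 261 and 268 CPM against 237 to 253 in E11.5 UBs, it was higher by 0.22 (SE 0.08, limma adjusted p = 0.0438). edgeR and DESeq2 on the reads did not call this difference (adjusted p = 0.0962 and 0.0909), nor did limma without any of the 4 E11.5 UB libraries or the second eUB library (limma adjusted p-values of 0.0663 to 0.0988). *Sufu* (ENSMUSG00000025231, GRCm38 chr19:46396896-46488804, plus strand), the gene of the protein that holds GLI proteins back, had group means of 74.7 to 126 CPM. It was higher in iSP than in E11.5 SP cells, at 123 to 130 against 109, 118, 90.3 and 85.3 CPM, by 0.33 (SE 0.11, limma adjusted p = 0.0196). The limma adjusted p was 0.057 without the third E11.5 SP and 0.0531 without the third iSP library. Against E12.5 cells the *Sufu* difference was 0.45 in iSP (SE 0.15, limma adjusted p = 0.0212) and -0.29 in eUB cells (SE 0.08, limma adjusted p = 0.019). In iNP cells it was -0.18 (SE 0.23, limma adjusted p = 0.55).

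Counted over the 9 genes, 7 passed the filter between iSP and E11.5 SP cells and 5 were called, 2 higher and 3 lower. Of all genes tested 67.6% were called, 35.5% higher and 32.1% lower. The 7 members had a median log2 difference in size of 0.89, against 0.54 over all genes tested. Between iNP and E11.5 NP cells 3 of 7 were called, all lower (64.7% of all genes were called, 35.5% higher and 29.2% lower), and between eUB and E11.5 UB cells 5 of 8, 3 higher and 2 lower (60.5%, 32.1% higher and 28.5% lower). Against E12.5 cells the counts were 4 of 7 in iSP (62.1%), 3 of 7 in iNP (44.3%) and 3 of 8 in eUB cells (44.4%). The share of members called was thus near or below that of all genes in each of these comparisons. The *Hhip* calls of eUB and iSP cells in these counts are no test, since no library of either group reached 1 CPM. Some members passed the filter mainly or only through the group where they were high, *Shh* and *Hhip* in the bud and *Gli1* and *Hhip* in stroma. With 1 CPM required in all 8 libraries, which leaves these out, 3 of 6 were called between eUB and E11.5 UB (7317 of 12199 over all genes), 3 of 5 between iSP and E11.5 SP (7991 of 12036), 1 of 6 between eUB and E12.5 UB (5265 of 12207) and 2 of 5 between iSP and E12.5 SP cells (7193 of 12003). The change from E11.5 to ES-derived cells was called different between bud and stroma for 3 of 7 members, where 39.9% of all genes were called. Between bud and nephron progenitors the count was 3 of 7 (41.8%) and between stroma and nephron progenitors 2 of 7 (25.6%). *Shh*, below the filter in stroma and in nephron progenitors, was left out here. *Hhip*, under 1 CPM in every eUB and iSP library, is counted in each of these as a description and not a test. The E11.5 and E12.5 comparisons share the ES-derived libraries. Between iNP and E11.5 NP cells 5 were called without the second iNP library (10285 of 14064 over all genes), between eUB and E12.5 UB cells 5 without the first E12.5 UB library (7251 of 13872), and between iSP and E11.5 SP cells 3 without the third E11.5 SP library (8973 of 13916). Without the first E12.5 SP library *Gli3* was lower in iSP than in E12.5 SP cells, at -0.40 (limma adjusted p = 0.00568), where all 4 libraries gave 0.00 (SE 0.34, limma adjusted p = 0.994). Without the first E12.5 UB library *Gli3* was lower in eUB than in E12.5 UB cells (-0.52, limma adjusted p = 0.0487) and higher in UBs titled E12.5 than E11.5 (0.32, limma adjusted p = 0.00467).

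Between the ex-fetu cell types, *Shh* lay on the side of the bud and most other members on the side of the stroma. *Shh* passed the filter through the UB libraries alone in each UB comparison with SP or NP cells of either age. Its calls there are no test, though the counts out of 8 below include them. Between E11.5 UB and SP cells the other 7 members tested were called, all lower in UB (53.6% of all genes were called, 26.8% higher and 26.7% lower). Of these, *Gli3* and *Hhip* had the highest adjusted p-values and rested on single libraries: the limma adjusted p of *Gli3* was 0.0265 and reached 0.0739 without the second E11.5 UB library, and that of *Hhip* was 0.0391 and reached 0.0921 without the second E11.5 SP library. At E12.5, 6 of 8 were called (46.4%), and the *Gli1* difference of UB from SP cells was -4.04 (SE 0.23, limma adjusted p = 1.32e-06). Between UB and NP cells 6 of 8 were called at E11.5 (60.2%) and 4 of 8 at E12.5 (32.7%), with *Ptch1* lower in the bud at both. Stromal cells were above nephron progenitors in *Gli1*, *Gli2* and *Hhip* at both ages, and E11.5 SP cells also in *Smo*, with 4 of 7 called at E11.5 (43.1%) and 3 of 7 at E12.5 (34.8%). *Gli1* was higher in SP by 2.67 at E11.5 (SE 0.60, limma adjusted p = 0.00549) and 2.88 at E12.5 (SE 0.32, limma adjusted p = 0.000102), while *Ptch1* differed by 0.01 (SE 0.30, limma adjusted p = 0.989) and 0.19 (SE 0.14, limma adjusted p = 0.339). Without the first E12.5 SP library *Gli3* was lower in UB than in SP cells (-1.04, limma adjusted p = 0.00122) and higher in SP than in NP cells (1.10, limma adjusted p = 0.0425), and without the first E12.5 NP library *Sufu* was lower in UB than in NP cells (-0.43, limma adjusted p = 0.0105). The E12.5 SP and NP libraries of the same number varied together, and in a fit blocked on that number 6 of 7 members were called between them (7961 of 13772 over all genes), *Gli3* and *Smo* also higher and *Sufu* lower in SP cells.

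Between the ES-derived types, 6 of 6 members tested were called between eUB and iSP cells (64.7% of all genes), 3 of 7 between eUB and iNP cells (52.2%) and 3 of 7 between iSP and iNP cells (30.7%). *Hhip* passed the filter through the iNP libraries alone in both comparisons with iNP cells, so that its calls there are no test. It is 1 of the 3 in each of these counts. The *Smo* call between eUB and iSP cells (-0.22, limma adjusted p = 0.0403) was lost without any of the 4 iSP libraries or any eUB library but the first (limma adjusted p-values of 0.0607 to 0.109) and by edgeR and DESeq2 (adjusted p = 0.0664 and 0.0517). *Gli2* was 2.14 higher in iSP than in iNP cells (SE 0.30, limma adjusted p = 0.00045), as it was in the ex-fetu stroma. *Gli1* differed by -0.16 between iSP and iNP cells (SE 0.17, limma adjusted p = 0.522), with libraries that overlapped. The *Hhip* difference of iSP from iNP cells was -1.01 (SE 0.10, with no test, since no iSP library reached 1 CPM), where ex-fetu it was higher in stroma. Without the second iNP library 6 of 7 were called between iSP and iNP cells (6297 of 14052 over all genes), with *Smo* and *Sufu* also higher and *Ptch1* lower in iSP cells, and *Sufu* was lower in eUB than in iNP cells (-0.57, limma adjusted p = 0.000129).

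Between the ages, 4 of 8 members were called in the bud (26.5% of all genes), where the label conflict leaves the direction open: *Ptch1* (0.57), *Sufu* (0.32) and *Gli2* (0.90) were higher and *Hhip* (-1.11) lower in the libraries titled E12.5. With all 36 libraries in the fit 2 of these stayed called, *Ptch1* and *Hhip*. In stroma 0 of 7 were called by limma (8.52% of all genes), with 0 at an unadjusted p under 0.05, 0 by edgeR and 1 by DESeq2. The last was *Hhip*, at 22.3, 15.6, 9.53 and 4.03 CPM at E11.5 and 3.90, 4.62, 7.89 and 5.87 at E12.5, with a limma difference of -0.90 (SE 0.42, limma adjusted p = 0.224). Without the fourth E11.5 SP library it was -1.32 (limma adjusted p = 0.0236). In nephron progenitors 0 of 7 were called by limma (6.34%), with 1 at an unadjusted p under 0.05, *Smo*, and 0 by edgeR and by DESeq2. Without the first E12.5 NP library *Smo* was higher at E12.5, by 0.34 (limma adjusted p = 0.044).

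The other genes of the pathway, 73 in 7 lists, were read beside the members. Of 4 receptor and co-receptor genes, 3 were higher and 1 lower in iSP than in E11.5 SP cells, where 35.5% of all genes were higher and 32.1% lower. The shares of all genes were 35.5% and 29.2% between iNP and E11.5 NP and 32.1% and 28.5% between eUB and E11.5 UB cells, and each count of a list in these comparisons is to be read against them. *Cdon*, *Boc* and *Gas1* encode co-receptors that help cells bind the ligand. *Cdon* was at 212 ± 22.8 CPM in iSP cells, against 42.1 ± 8.83 in those of E11.5 stroma (each SD, n = 4), a difference of 2.32 (SE 0.16, limma adjusted p = 1.77e-06), *Gas1* rose by 1.35 and *Boc* by 0.83. *Lrp2*, an endocytic receptor gene low in stroma, fell by 2.03. In iNP cells 1 of the 4 was higher, *Boc* (94.8 ± 16.7 against 39.7 ± 2.56 CPM, each SD, n = 4), and 3 were lower, with *Gas1* at -1.33 and *Lrp2* at -2.33. *Boc* is also high in stroma, and iNP libraries held 17.7 to 44.9 CPM of *Pdgfra* against 1.98 to 3.04 in E11.5 NP libraries and stromal markers (6 of 6 detected) at 751 to 950 CPM in sum against 644 to 688; their part was not tested. In eUBs 0 were higher and 1 lower, *Lrp2* (-1.82). Against E12.5 cells 0 were higher and 3 lower in eUBs (*Lrp2*, *Boc* and *Cdon*), 2 higher and 0 lower in iSP (*Cdon* and *Gas1*) and 1 higher and 2 lower in iNP cells, where 44.4%, 62.1% and 44.3% of all genes were called. *Boc* was at 12.3 to 17.1 CPM in eUB and 27.6 to 46.5 in E12.5 UB libraries, and *Cdon* at 81.9 to 113 and 132 to 148. The bar plot of the receptor genes gives their levels in all groups.

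**Figure D5:**
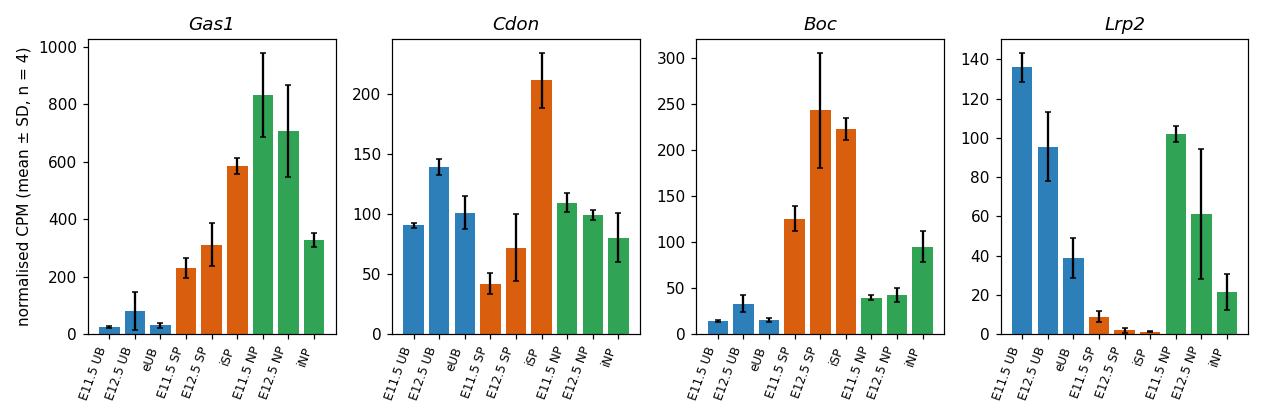
Mean level of 4 receptor and co-receptor genes (vertical axes, normalised CPM; error bars, SD of 4 libraries) in the 9 groups (horizontal axes); blue is bud, orange stroma and green nephron progenitors. The *Cdon* and *Gas1* bars are higher in iSP than in E11.5 SP cells.

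Of 8 general targets tested, 0 were higher and 7 lower in iSP than in E11.5 SP cells (32.1% of all genes were lower), with a median log2 difference of -1.05 against 0.04 over all genes tested. *Foxf2* was at 0.0451 ± 0.0468 against 31.1 ± 30.3 CPM (each SD, n = 4) and *Foxl1* fell by 2.10; *Foxf2* in the E11.5 SP libraries ranged from 2.52 to 65.6 CPM. *Foxf2* and *Nkx6-1* of this list and *Myocd* of the next passed the filter through the E11.5 SP libraries alone. They could only be called lower and are no test, though the counts of 7 and 6 lower and the median hold them. Of 6 genes listed as pathway targets in the mesenchyme of the ureter, most of them also markers of that mesenchyme, 6 were lower. *Tbx18*, a T-box gene of that mesenchyme, was down by 2.58. *Tagln*, a smooth muscle gene, was at 0.672 ± 0.288 against 86.8 ± 40.3 CPM (each SD, n = 4). Against E12.5 SP cells 5 of 6 general targets and 5 of 6 ureteric mesenchyme targets were lower and 0 were higher (62.1% of all genes were called). The summed ureteric mesenchyme markers, 5 genes of which this list holds, were at 247 to 363 CPM in E11.5 SP and 56.3 to 65.1 in iSP libraries; their part was not tested. In iNP cells the targets went both ways: *Bmp4*, a growth factor gene, rose by 2.36 and *Ccnd1*, a cyclin gene, by 2.10, *Tagln* fell by 2.90 and *Bcl2*, a survival gene, by 1.16, and of 7 general targets 1 was higher and 3 lower. In eUBs 3 of 7 general targets were higher and 4 lower, with *Nkx6-1*, a homeobox gene of the ventral neural tube, at 24.7 ± 2.69 against 1.34 ± 0.140 CPM and *Foxc2* at 0.583 ± 0.146 against 4.26 ± 1.06 (each SD, n = 4), the latter gene having passed the filter through the ex-fetu libraries alone. The summed neural tube markers were at 37.1 to 41.1 CPM in eUB and 22.1 to 30.8 in E11.5 UB libraries (4 of 7 over 3 reads in any library in each group). *Nkx6-1* is itself on that list. Of its other genes *Tubb3*, a neuronal tubulin gene, was at 10.2 to 17.7 CPM in eUB and 19.8 to 28.9 in E11.5 UB libraries, *Sox2* at 1.49 at most in eUBs, and *Olig2* and *Neurog2* at 0 in every eUB library. The target genes also answer to other signals.

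Of 6 kidney genes that GLI3 repressor is known to bear on, 0 were higher and 4 lower in iSP cells (67.6% of all genes were called, 32.1% lower), with *Ret* at 0.476 ± 0.403 against 19.6 ± 9.60 CPM (each SD, n = 4). *Ret* marks the bud, and the summed bud markers of E11.5 SP libraries were at 131 to 304 CPM against 88.1 to 99.6 in iSP libraries, although the sort gated out cells with RET or EpCAM; their part was not tested. In iNP cells 2 were higher and 2 lower (*Pax2* by -0.93), and in eUBs 2 were higher, with *Sall1* at 1.13, and 2 lower, with *Mycn* at -0.75.

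The machinery between receptor and GLI proteins was expressed in all groups. Of 18 genes of transport in the primary cilium 11 were higher and 2 lower in iSP than in E11.5 SP cells (35.5% and 32.1% of all genes), 7 higher and 3 lower in iNP and 11 higher and 1 lower in eUB cells, each against their E11.5 cells. *Ttc21b*, a subunit of the retrograde transport complex, was 2.18 higher in iNP and 1.56 higher in eUB cells, *Wdr19*, of the same complex, was 1.51 higher in iSP cells, and *Ift20* was lower in each (-0.90 in iSP, -0.86 in iNP and -0.37 in eUB cells). Of 21 genes of signal transduction 6 were higher and 10 lower in iSP, 5 higher and 8 lower in iNP and 6 higher and 7 lower in eUB cells. *Cul3*, of the complex that marks GLI proteins for breakdown, was lower in iSP (-0.75) and iNP cells (-1.14), and *Kif7*, a ciliary kinesin gene, in eUBs (-0.69). Over all 7 lists 22 of 65 genes tested were higher and 29 lower in iSP, 18 of 63 higher and 21 lower in iNP and 25 of 62 higher and 16 lower in eUB cells. In ligand processing *Scube3*, whose product helps release the ligand, differed by -1.67 and *Scube1* by 1.64 in eUBs, at 73.5 ± 14.6 against 233 ± 14.9 CPM and 15.5 ± 4.75 against 4.14 ± 0.699 (each SD, n = 4).

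Over the 36 libraries the level of *Gli1* went with that of *Ptch1* (Pearson r = 0.842) and of *Hhip* (r = 0.791) and less with *Gli2* (r = 0.229), and *Shh* went with *Ihh* (r = 0.710) and not with *Gli1* (r = -0.149). These are descriptions over libraries of 9 groups, without a test, and the points share cell type and source. Likeness was read among the 16001 genes with at least 1 CPM in at least 4 libraries. Those most like *Gli1* in log2 level were, by Pearson's r, *Zyx* (r = 0.912), *Npas4*, *Ripk1*, *Acvr1* and *Inf2* (r = 0.904). Of these only *Npas4* (rho = 0.907) and *Inf2* (rho = 0.893) were also among the first 5 by Spearman's rho. By Pearson's r those most like *Shh* were *Msln* (r = 0.970), *Slfn2*, *Spi1*, *Angptl8* and *Arhgap30* (r = 0.952), and by Spearman's rho *Hs3st3b1* (rho = 0.932), *Aplp2*, *Pcdh1*, *Itga3* and *Tmem54* (rho = 0.906), with no gene in both. *Spi1* is a myeloid transcription factor gene, at 4.12 to 12.8 CPM in E11.5 UB libraries and at most 0.902 in eUB libraries, where macrophage genes were near 0.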

How the data were processed

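RNA of 36 sorted samples was sequenced, 4 in each of 9 groups. The authors used Cutadapt for trimming and STAR for alignment, and deposited a signal per gene, normalised CPM, counts scaled by library size and edgeR normalisation factors. The counting program is not given in the sources used here, and the methods name a human build although the gene identifiers are of the mouse. A second deposited table repeats these values with group means, log fold changes and p-values of the authors' own comparisons, which were not used. In each library 100% of values were whole multiples of 1 read, to within 0.01 reads, so reads were recovered from them, and 13.0 to 52.5 M reads per library set the precision.

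Groups were taken from the labels. Comparisons were made with limma 3.58.1 in R 4.3.3 on log2(CPM + 1), with Benjamini-Hochberg adjustment over all genes with at least 1 CPM in at least 4 of 8 libraries, and the differences between changes with limma over all 36 libraries. Members below the filter were tested by exact permutation. edgeR 4.0.16 (quasi-likelihood) and DESeq2 1.42.0 on the recovered reads were alternatives; edgeR called 9402 of 13916 genes between iSP and E11.5 SP cells. Other alternatives were another pseudocount, filter, scaling, a test for a size over 1 on the log2 scale, a replicate block and leaving out each library. Library numbers paired only E12.5 SP with E12.5 NP samples, whose deviations from the group means correlated in every pair (lowest r = 0.519). The fits were tested on simulated data. Positions are from GENCODE vM21 (GRCm38), where 22642 of 22761 identifiers matched. Members and lists were chosen with earlier results of these data known. Of the 7 pathway lists, the called gene with the largest change in each direction against E11.5 cells was named; the other receptor genes, *Foxf1*, *Foxf2*, *Foxl1*, *Foxa1*, *Foxa2* and *Spi1* were added after their values were seen. A gene of the receptor list and a result on genes similar to a member are not reported here. P-values measure the spread between these samples.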

Additional observations from a re-analysis of the deposited data

Results flagged for a closer look

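In 11 of 78 groups of 4 libraries examined for a member, 1 library lay far from the other 3, with a gap to its nearest neighbour, as a share of the group's range, above Dixon's 95% critical value; chance gives about 5% of groups. The second iNP library was the lowest of its group in *Smo* (gap 0.889 of the range), *Gli2* (0.914), *Gli3* (0.835) and *Sufu* (0.834). The first E11.5 NP library was the highest in *Ptch1* (0.907), *Gli1* (0.876) and *Hhip* (0.878). The others were *Ihh* in the first iSP library (0.853), *Gli3* in the third E11.5 NP library (0.889), *Sufu* in the fourth eUB library (0.843) and *Sufu* in the first E12.5 SP library (0.865).

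The change from E11.5 to ES-derived cells differed between cell types for *Ptch1* and *Gli1* by the limma test of the difference itself. For *Ptch1* bud minus stroma was 2.62 and bud minus nephron progenitors 2.19 on the log2 scale. For *Gli1* the values were 5.41 and 2.57, and stroma minus nephron progenitors was -2.83. For *Hhip* bud minus stroma was 1.28, bud minus nephron progenitors -1.71 and stroma minus nephron progenitors -2.99, but no eUB or iSP library reached 1 CPM, so these 3 values are a description and not a test.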

How the results depend on the processing

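Of 153 fits of a member, 78 passed, and 61 of these passed under every alternative other than the test for a size over 1, 25 under that one too. These counts, and the counts of members below, also hold *Shh* and *Hhip* where they passed the filter through a single group. Those calls are no test. Over the alternatives, 2810 values stayed on their side of the threshold without a called reversal (109 of them changed sign with no call on either side), 118 lost the call, 72 gained it and 2 reversed, both *Gli3* between iSP and E12.5 SP cells (-0.40 without the first E12.5 SP library, alone or with the other first E12.5 libraries; leaving out the other libraries gave up to 0.18). The counts of members called moved as follows.

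With the filter applied in all 8 libraries, 3 were called between eUB and E11.5 UB, 3 between iSP and E11.5 SP, 1 between eUB and E12.5 UB and 2 between iSP and E12.5 SP cells, where fewer members were tested. The test for a size over 1 called 1 between eUB and E11.5 UB, 2 between iSP and E11.5 SP, 1 between iNP and E11.5 NP, 0 between eUB and E12.5 UB, 1 between iNP and E12.5 NP and 0 between the UB ages. At E11.5 it called 2 between UB and SP, 1 between UB and NP and 0 between SP and NP, and at E12.5 2 between UB and SP and 1 between UB and NP. Among ES-derived cells it called 3 between eUB and iSP, 1 between eUB and iNP and 1 between iSP and iNP, and for the difference between changes 1 for bud against nephron progenitors and 1 for stroma against nephron progenitors. Quantile normalisation called 5 between eUB and E12.5 UB cells. With all 36 libraries in the fit 2 were called between the UB ages and 1 between the SP ages, where DESeq2 also called 1. The replicate block called 6 between E12.5 SP and NP cells. In the other comparisons the library numbers did not pair the samples consistently. Types sorted from the same kidneys or embryoid bodies may still share a source. No other count of members moved by over 1.5 times under the block. The causes of the other moves were not tested. Over all genes, leaving out 1 library moved the 1162 called between the SP ages to between 420 (without the fourth E12.5 SP library) and 2943 (without the first), the 850 between the NP ages to between 188 (without the third E11.5 NP library) and 2289 (without the first E12.5 NP library), and the 3648 between the UB ages to between 2359 (without the first E11.5 UB library) and 6031 (without the first E12.5 UB library), so that the shares of all genes called between ages are themselves unsteady.

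Among the settings chosen after seeing the data, leaving out the second iNP and first eUB library gave 5 between iNP and E11.5 NP, 6 between eUB and iNP and 6 between iSP and iNP cells. Leaving out the first E12.5 libraries gave 5 between eUB and E12.5 UB, 1 between the NP ages and 5 between E12.5 SP and NP cells.

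Leaving out 1 library at a time gave 4 to 5 for eUB, 3 to 5 for iSP and 2 to 5 for iNP cells against E11.5, and 2 to 5, 3 to 5 and 2 to 4 against E12.5. Between ages it gave 4 to 5 in UB, 0 to 1 in SP and 0 to 1 in NP cells. For UB against SP, UB against NP and SP against NP it gave 6 to 8, 5 to 7 and 4 to 4 at E11.5, 6 to 7, 4 to 5 and 3 to 4 at E12.5, and 5 to 6, 3 to 4 and 2 to 6 in ES-derived cells. The differences between changes gave 3 to 3, 3 to 3 and 2 to 3 in the same order.

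Upper-quartile scaling shifted the median of all genes by -0.187 between eUB and iNP and by -0.118 between eUB and iSP cells; the member calls named above for *Gli1* and *Ptch1* are larger than this. Below 3 reads, as for *Shh* in iSP cells, a level could not be told from 0.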
